A study of Mus musculus with 8 samples.

Results

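The semaphorins, plexins and neuropilins form a ligand and receptor family, and its RNA was measured in cardiomyocytes, the contracting cells of the heart, purified from mouse pups. The genes were chosen by symbol, as every entry named Sema followed by a digit and a letter from a to g, Plxn followed by a letter from a to d and a digit, Nrp1 or Nrp2. This gave 31 of 48440 entries, which are 20 semaphorins, 9 plexins and 2 neuropilins. The family was picked on the high level of Sema5a in litter 3, seen in these same libraries, and the question was whether any relative shares that difference. All 8 libraries came from C57BL6/J pups on postnatal day 2, and the labels give no mutation and no treatment. Each of 4 litters gave 1 male and 1 female library, so a litter is 2 libraries and a sex is 4. The labels name neither the method that purified the cells, nor the number of hearts in a library, nor a preparation day, so a litter and its day of handling cannot be told apart.

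Semaphorins are guidance cues that a cell secretes or carries on its surface. Plexins are their receptors, and act inside the cell on small GTPases and the actin cytoskeleton. Secreted class 3 semaphorins mostly need a neuropilin beside the plexin, and neuropilins also bind VEGF. In the heart these genes are known for guiding nerves and vessels and for septation of the outflow tract. Sema5a encodes a transmembrane semaphorin with thrombospondin repeats in its extracellular part, and plexin-B3 and several class A plexins have been described as its receptors.

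Promoter sequence is shown for Sema5a, for Sema5b, the other class 5 gene, and for 2 relatives that were higher in litter 3, the secreted ligand Sema3d and the receptor Plxnb3. Each stretch is the 250 bases before the start in RefSeq's table (GRCm38.p6), read 5′ to 3′ on the gene's strand, with the GC box GGGCGG in capitals on either strand. The positions are chr15:32244563-32244812 for Sema5a, chr16:35541112-35541361 for Sema5b, chr5:12382916-12383165 for Sema3d and chrX:73756853-73757102 for Plxnb3, all on the plus strand.
Sema5a: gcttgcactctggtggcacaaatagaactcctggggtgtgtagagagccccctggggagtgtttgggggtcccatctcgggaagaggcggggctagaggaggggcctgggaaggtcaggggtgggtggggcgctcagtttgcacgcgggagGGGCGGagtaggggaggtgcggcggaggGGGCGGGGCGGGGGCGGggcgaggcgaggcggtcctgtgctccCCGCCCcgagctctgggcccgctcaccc
Sema5b: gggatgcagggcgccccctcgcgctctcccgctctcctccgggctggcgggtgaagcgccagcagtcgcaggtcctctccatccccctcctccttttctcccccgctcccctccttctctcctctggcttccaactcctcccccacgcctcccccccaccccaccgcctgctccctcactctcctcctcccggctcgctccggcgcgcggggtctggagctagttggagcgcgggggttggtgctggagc
Sema3d: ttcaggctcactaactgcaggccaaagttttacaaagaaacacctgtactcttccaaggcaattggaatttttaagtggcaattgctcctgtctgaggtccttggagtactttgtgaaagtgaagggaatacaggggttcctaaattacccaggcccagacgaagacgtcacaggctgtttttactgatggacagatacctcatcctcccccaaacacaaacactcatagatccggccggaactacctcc
Plxnb3: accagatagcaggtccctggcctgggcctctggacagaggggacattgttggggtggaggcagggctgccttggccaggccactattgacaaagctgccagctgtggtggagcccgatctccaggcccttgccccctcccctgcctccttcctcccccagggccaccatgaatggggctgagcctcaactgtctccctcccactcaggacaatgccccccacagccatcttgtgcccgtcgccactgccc
The Sema5a stretch held 5 matches to this box, and the stretches of Sema5b, Sema3d and Plxnb3 held none. Over all 32536 such stretches, 33.0% held at least 1 match, as did 27 of 37 stretches from 26 genes of the family. The letters CCAAT stood in 33.8% of all stretches and once in that of Sema3d. TATAAA stood in 12.3% and CACGTG in 6.04%, and neither was in any of these 4. The GC content was 72.0% for Sema5a and for Sema5b, 65.2% for Plxnb3 and 46.8% for Sema3d, against a median of 52.4%. None of these 4 motifs was common to Sema5a, Sema3d and Plxnb3. Sema4c and Sema6c, which were also higher in litter 3 and are not shown, have more than 1 stretch. The GC box stood 2 times in each stretch of Sema4c, and 1 or 0 times in those of Sema6c. A match is a description of the letters in this window only.

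Libraries held 14226342 to 24910243 counts, the female of litter 3 having the fewest. Values are given as CPM, the count of a gene scaled by the total of its library. Cardiomyocyte markers (11 genes such as Myh6 and Tnnt2) summed to 78500 to 99800 CPM, by far the highest sum of any list, as the labelled cell type would have. Endothelial markers (11 genes) summed to 21.2 to 181 CPM, fibroblast markers (10 genes) to 43.0 to 271 CPM and neuron markers (7 genes) to 1.69 to 5.41 CPM. The litter 3 libraries stood apart from the other 6 in several lists. Their fibroblast sums were 63.1 and 43.0 CPM against 125 to 271, and their mural sums 942 and 917 CPM against 1340 to 1460. In the mural list Acta2 had 378 and 351 CPM against 806 to 985, while Abcc9 had 487 and 492 against 372 to 519. Their cardiomyocyte sums were 79700 and 78500 CPM against 85800 to 99800. Of the 11 cardiomyocyte markers 6 fell in litter 3 and none of the 11 rose (edgeR, adjusted p under 0.05). Myh6 had 17300 and 16400 CPM against 19400 to 29000, and Tnnt2 13000 and 13600 against 11600 to 13000. The dissociation and stress list (11 genes such as Fos and Egr1) reached 1370 and 1280 CPM in litter 3 against 338 to 602 CPM. The part of these shifts in the litter differences of the family was not tested. Because these are bulk samples, fewer cells of a type and less RNA per cell cannot be told apart.

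Of the 31 genes, 28 had enough counts to be tested, 17 of them semaphorins. Sema4a, known from immune cells, had 2 to 13 counts per library. Sema3e, a ligand of plexin-D1, had 3 counts in the male of litter 2, 1 in the male of litter 4 and 0 in the other 6. Sema4f had 2 counts in the male of litter 2, 1 in the female of litter 4 and 0 in the other 6. In this depth range 3 counts correspond to 0.12 to 0.211 CPM, so the last 2 genes were not detectable above that floor.

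Receptors had the highest levels per length. Per kilobase of exon (GENCODE M21), Plxnb2 had 29.0 ± 1.56 CPM, Plxnb1 15.7 ± 1.68 and Nrp1 14.9 ± 1.95 (SD, n = 8). Plxnb1 and Nrp1 did not differ beyond their spread. Plxna1 followed at 8.63 ± 1.84 CPM per kilobase.
Plxnb2, a receptor of class 4 semaphorins, had 222, 217, 220 and 212 CPM in the males of litters 1 to 4 and 217, 251, 225 and 229 CPM in the females. With a coefficient of variation of 5.38% it was the steadiest of the 31 genes. Nrp1, the co-receptor of Sema3a, had 149, 171, 159 and 133 CPM in males and 165, 145, 133 and 113 CPM in females.

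Among ligands, Sema3b (6.21 ± 0.685 CPM per kilobase), Sema6d (5.68 ± 0.854) and Sema4b (5.28 ± 0.560) had the highest levels, and neighbours in this order lay within their spread. Sema3b, a secreted ligand that acts through neuropilins, had 29.0, 33.6, 27.2 and 25.5 CPM in the males of litters 1 to 4 and 35.3, 29.5, 29.4 and 27.8 CPM in the females. Sema6d, a transmembrane ligand that binds plexin-A1, had 65.3, 57.7, 61.9 and 49.2 CPM in males and 63.5, 77.0, 52.2 and 52.6 CPM in females. In both genes the litter 3 libraries lay among the others. Sema5a stood lower, at 0.882 ± 0.779 CPM per kilobase over its 18.686 kilobases of exon, and its SD was nearly as large as its mean. Its neighbours were Sema6c at 1.66 ± 0.624 and Sema3d at 0.636 ± 0.253. Over all 8 libraries Sema5a did not differ from either beyond its own spread, which includes its high level in litter 3. In the other 6 libraries Sema5a had 8.74 ± 2.68 CPM and Sema6c 8.47 ± 2.81 CPM. With 5.935 kilobases of exon in Sema6c, Sema5a was the lower of these 2 per kilobase there. Sema7a, the only semaphorin anchored by a lipid (GPI), had 0.352 ± 0.376 CPM per kilobase. Among tested genes, coefficients of variation above 100% were found for Sema7a (107%) and Nrp2 (104%).

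**Figure D1:**
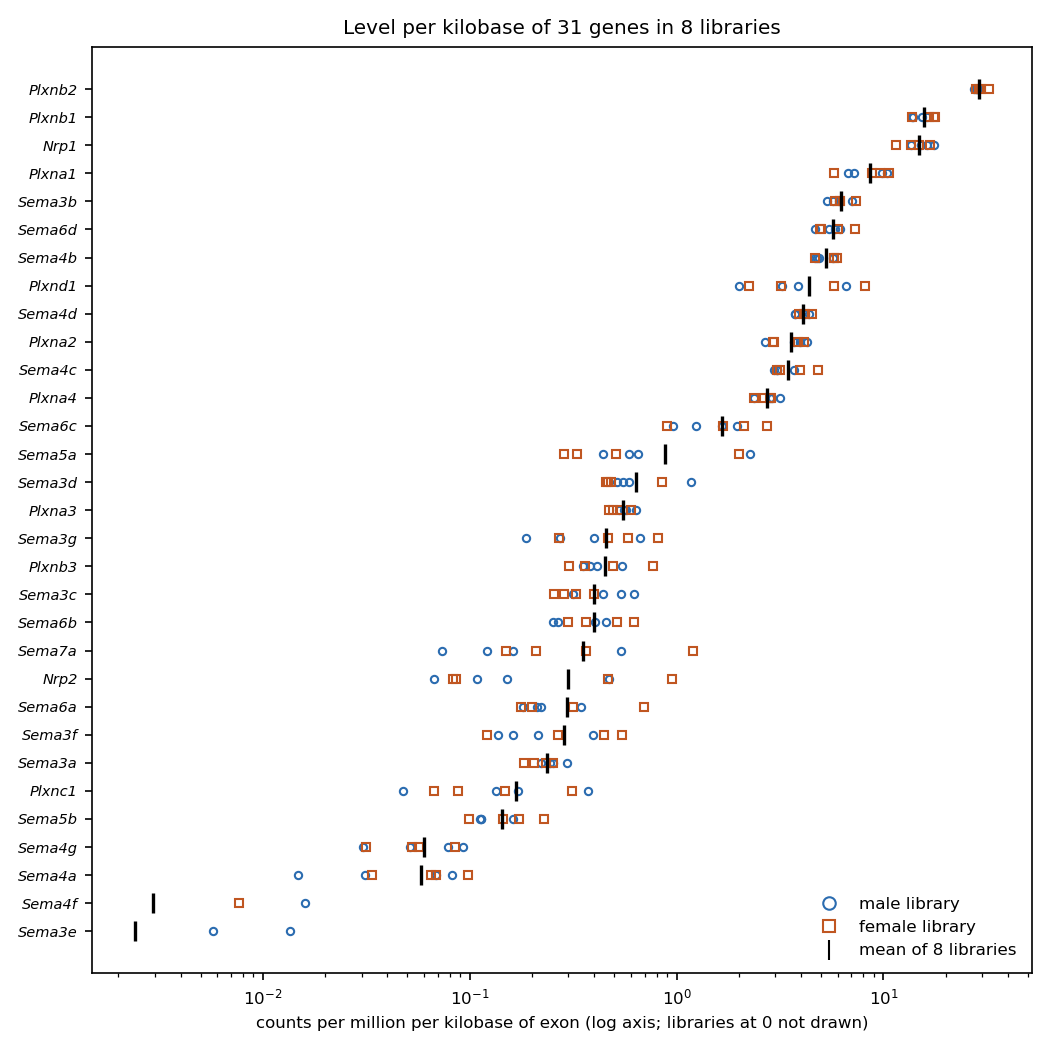
Level of all 31 genes in CPM per kilobase of exon, on a log axis, ordered by the mean of 8 libraries (black bar), with males as circles and females as squares. Plxnb2 is highest at 29.0, Sema5a has 2 libraries set apart to the right, and Nrp2 and Sema7a spread widest among the tested genes.

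Sema5a lies on chromosome 15 (GRCm38, chr15:32244810-32696341, plus strand). No 100-base window of its longest annotated transcript occurs in another gene, and no annotated gene overlaps its exons. It had 8.23, 11.0, 42.1 and 12.2 CPM in the males of litters 1 to 4 and 5.36, 6.17, 37.3 and 9.49 CPM in the females. These values rest on 948 and 531 counts in litter 3 and on 130 to 261 counts in the other 6 libraries. Both litter 3 libraries lay above all others with no overlap, at 39.7 ± 3.35 CPM (SD, n = 2) against 8.74 ± 2.68 CPM (SD, n = 6), a ratio of 4.54. The fitted log2 fold change, litter 3 minus the mean of the other 3 litters, was 2.18 (SE 0.11). It was the 9th highest of 13771 tested genes, which is a description with no test, since the gene was chosen on this value. On the log2 scale the male of litter 3 was 2.01 and the female 2.41 above the mean of the other libraries of its sex.

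Whether relatives shared this difference was tested in the same fit over all 13771 genes. The fit takes its error from the scatter within litters, and litter 3 is a single litter. The p-values and intervals of this fit therefore do not measure how far litters commonly differ. Of the 27 other genes tested, 4 rose in litter 3 (14.8%) and 6 fell (22.2%), while 13.6% and 14.8% of all genes did (edgeR quasi-likelihood test, adjusted p under 0.05). The share that rose is near that of all genes. Sema5a was the only one of the 28 with a log2 fold change above 1, a size that 1.23% of all genes reached. Below -1 lay 5 of the 27 relatives (18.5%), Nrp2, Plxnc1, Sema3f, Plxnd1 and Sema7a, against 4.34% of all genes, though Sema7a did not pass the test. With litter 2 left out of the reference 2 relatives remained below -1, Nrp2 and Plxnc1 (3.76% of all genes), and without the female of litter 3 there were 3 (4.65%). With a mean count of at least 50, where fewer genes are tested, there were 2, Nrp2 and Plxnd1 (2.55% of all genes). With no filter on low counts the same 5 stood against 13.3% of all genes. The median of the 27 relatives was -0.16, against 0 over all genes. Both litter 3 libraries lay above the other 6 for 2 relatives (7.41%), against 19.5% of all genes, and below them for 5 relatives (18.5%), against 12.9%.

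**Figure D2:**
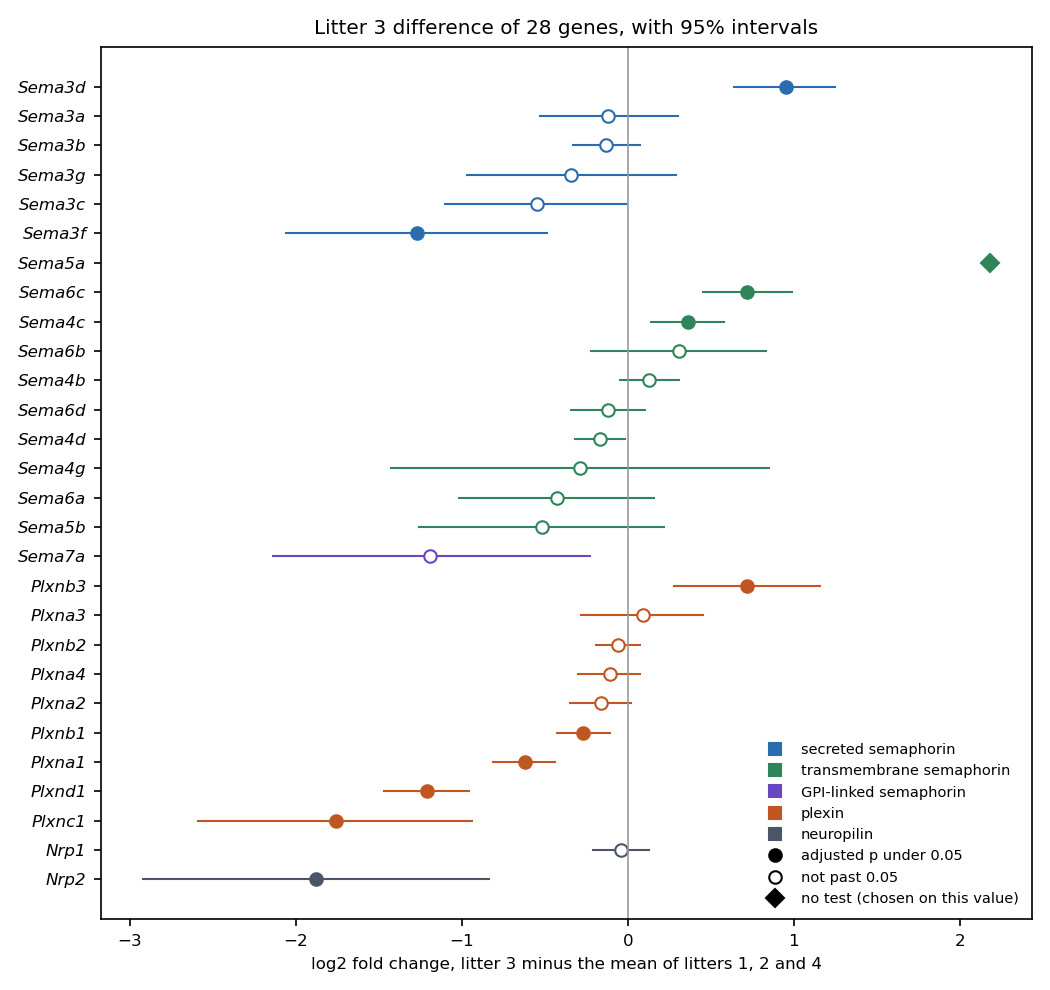
Log2 fold change of litter 3 against the mean of litters 1, 2 and 4 for the 28 tested genes, grouped by role, with 95% intervals. Sema5a, drawn without a test, is at 2.18, the 4 relatives that rose lie between 0.36 and 0.95, and the 6 that fell lie between -1.88 and -0.27.

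Among the 6 tested secreted semaphorins, 1 rose, 1 fell and 4 did not pass. Sema3d, on chromosome 5, encodes a ligand known for patterning the pulmonary veins. It had 4.42, 4.76, 10.1 and 5.04 CPM in the males of litters 1 to 4 and 4.16, 3.93, 7.31 and 3.99 CPM in the females. Both litter 3 libraries were above the other 6, which lay close together at 4.38 ± 0.442 CPM (SD, n = 6). The fit gave 0.95 on the log2 scale (SE 0.14, 95% interval 0.64 to 1.25, edgeR adjusted p = 0.00047), and the ratio of the mean CPM was 1.99. Of the relatives that rose it had the largest change, and its call held in all 18 alternatives.

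Sema3f, a repulsive ligand of neuropilin-2, moved the other way. It had 0.843, 2.06, 0.710 and 1.11 CPM in males and 2.31, 2.83, 0.633 and 1.39 CPM in females of litters 1 to 4, from 9 to 62 counts. Litter 3 was below every other library, though the male of litter 1 was close. The log2 fold change was -1.27 (SE 0.36, edgeR adjusted p = 0.0205). Without the female of litter 3 the adjusted p was 0.262, at a log2 fold change of -0.88, and with litter 2 left out of the reference it was 0.0881. Sema3a, Sema3b, Sema3c and Sema3g had log2 fold changes from -0.55 to -0.12. The lowest of these, -0.55, was that of Sema3c, which takes part in septation of the outflow tract (95% interval -1.10 to -0.01, edgeR adjusted p = 0.119).

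Among the transmembrane semaphorins other than Sema5a, 2 of 9 rose, none of the 9 fell and 7 did not pass. Sema6c, a class 6 ligand on chromosome 3, had 5.70, 7.36, 11.6 and 9.81 CPM in males and 5.36, 9.96, 16.3 and 12.6 CPM in females of litters 1 to 4. Litter 3 was highest within each sex, but its male was below the female of litter 4. It rose by 0.72 on the log2 scale (SE 0.12, edgeR adjusted p = 0.0013), and the call held in all 18 alternatives. Sema6c also differed among litters 1, 2 and 4 (adjusted p = 0.00492), with litter 1 lowest in both sexes.

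Sema4c, a ligand of plexin-B2, had 13.6, 14.0, 17.0 and 14.0 CPM in males and 14.5, 18.1, 22.1 and 14.1 CPM in females. The female of litter 2 was above the male of litter 3, so the groups overlapped. Its rise of 0.36 on the log2 scale (SE 0.10, edgeR adjusted p = 0.0203) was the smallest of those that rose. It was not past the threshold in 5 of 18 alternatives, with an adjusted p of 0.28 without the female of litter 3, 0.0502 without the female of litter 1 and 0.0555 in DESeq2. An exon of D430040D24Rik, on the opposite strand, overlaps Sema4c, and it is not known whether the counting used strand.

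Sema5b, the nearest relative of Sema5a by class, did not share its difference. It had 0.803, 1.14, 0.799 and 0.796 CPM in males and 1.61, 1.23, 0.703 and 1.02 CPM in females of litters 1 to 4, from 10 to 39 counts. The litter 3 male lay among the other males and the litter 3 female was the lowest female. The log2 fold change was -0.52 (SE 0.34, 95% interval -1.26 to 0.22, edgeR adjusted p = 0.275), an interval whose upper end lies below the 2.18 of Sema5a. Sema4d, the main ligand of plexin-B1, had -0.17 (95% interval -0.32 to -0.02, adjusted p = 0.0906), and Sema6d had -0.12 (-0.34 to 0.10). Sema7a, a ligand of plexin-C1 and of beta1 integrins, had 0.399 and 0.492 CPM in litter 3 and 0.241 to 3.98 CPM elsewhere, a change of -1.19 (SE 0.44, adjusted p = 0.0616). Its value moved with the libraries used, from -0.49 (adjusted p = 0.515) with litter 2 left out of the reference and -0.71 (0.504) without the litter 3 female to -1.64 (0.0883) without the litter 3 male. It passed the threshold in 6 alternatives, among them no filter on low counts (0.018), leaving out the litter 1 male (0.0296) and leaving out the litter 4 female (0.0456).

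Among the 9 plexins, 1 rose, 4 fell and 4 did not pass. The 1 that rose was Plxnb3, on the X chromosome, a described receptor of Sema5a. It had 2.29, 2.69, 3.55 and 2.49 CPM in the males of litters 1 to 4 and 2.35, 3.20, 4.99 and 1.96 CPM in the females, from 47 to 80 counts. Both litter 3 libraries were above the other 6, the male only narrowly. The log2 fold change was 0.72 (SE 0.20, 95% interval 0.28 to 1.16, edgeR adjusted p = 0.0193). The call was lost without the female of litter 3 (log2 fold change 0.47, adjusted p = 0.306), in DESeq2 (0.0697) and without litter 1 in the reference (0.0551).

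None of the 3 class A plexins described as receptors of class 5 semaphorins passed as higher. Plxna1 had 88.8, 94.1, 60.9 and 65.5 CPM in males and 87.5, 96.9, 52.1 and 79.4 CPM in females, with both litter 3 libraries lowest. It fell by 0.62 on the log2 scale (SE 0.08, edgeR adjusted p = 0.000269) and held in all 18 alternatives. Of the windows of its longest transcript 3.31% also occur in Gm26811, on the opposite strand, which had at most 2 counts. Plxna2 had 67.8, 73.6, 63.2 and 46.2 CPM in males and 71.3, 66.7, 50.5 and 50.8 CPM in females, and its log2 fold change of -0.16 did not pass (edgeR adjusted p = 0.169). Plxna3 had 4.13, 4.50, 5.01 and 4.40 CPM and 4.74, 3.88, 4.22 and 3.71 CPM, with a log2 fold change of 0.09 (95% interval -0.28 to 0.45).

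Plxnd1, a receptor known from endothelial cells and outflow tract formation, had 28.1, 47.9, 14.7 and 23.6 CPM in males and 42.1, 59.4, 16.4 and 23.3 CPM in females. Litter 3 was lowest in both sexes and litter 2 highest. The log2 fold change was -1.21 (SE 0.12, 95% interval -1.47 to -0.96, edgeR adjusted p = 2.21e-05), the smallest p-value among the relatives, and the call held in all 18 alternatives. Plxnc1, the receptor of Sema7a, had 1.12, 3.11, 0.399 and 1.43 CPM in males and 1.24, 2.60, 0.562 and 0.733 CPM in females. It fell by 1.76 (SE 0.38, adjusted p = 0.00502), from as few as 8 counts, and did not pass without the male of litter 3 (0.126). Plxnb1, the receptor of Sema4d, had 156, 148, 134 and 132 CPM in males and 160, 168, 132 and 171 CPM in females, and fell by 0.27 (SE 0.07, adjusted p = 0.0164). The male of litter 4 overlapped with litter 3, and without the female of litter 3 the adjusted p of Plxnb1 was 0.269. Gm7628, on the opposite strand, shares 1.89% of its windows and had at most 84 counts.

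Of the 2 neuropilins 1 fell and 1 did not pass. Nrp1, at 159 and 133 CPM in litter 3 and 113 to 171 CPM elsewhere, had a change of -0.04 (95% interval -0.21 to 0.13, edgeR adjusted p = 0.735). Nrp2, the co-receptor of Sema3f and a marker of venous and lymphatic vessels, had 1.28, 5.60, 0.799 and 1.80 CPM in males and 5.53, 11.2, 0.984 and 1.02 CPM in females. Litter 3 was lowest, but the female of litter 4 was only just above it, and the female of litter 2 was highest. Nrp2 fell by 1.88 (SE 0.48, 95% interval -2.92 to -0.84, adjusted p = 0.0122). Without the female of litter 3 the adjusted p of Nrp2 was 0.148, and with litter 2 left out of the reference it was 0.0945 at a log2 fold change of -1.26.

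**Figure D3:**
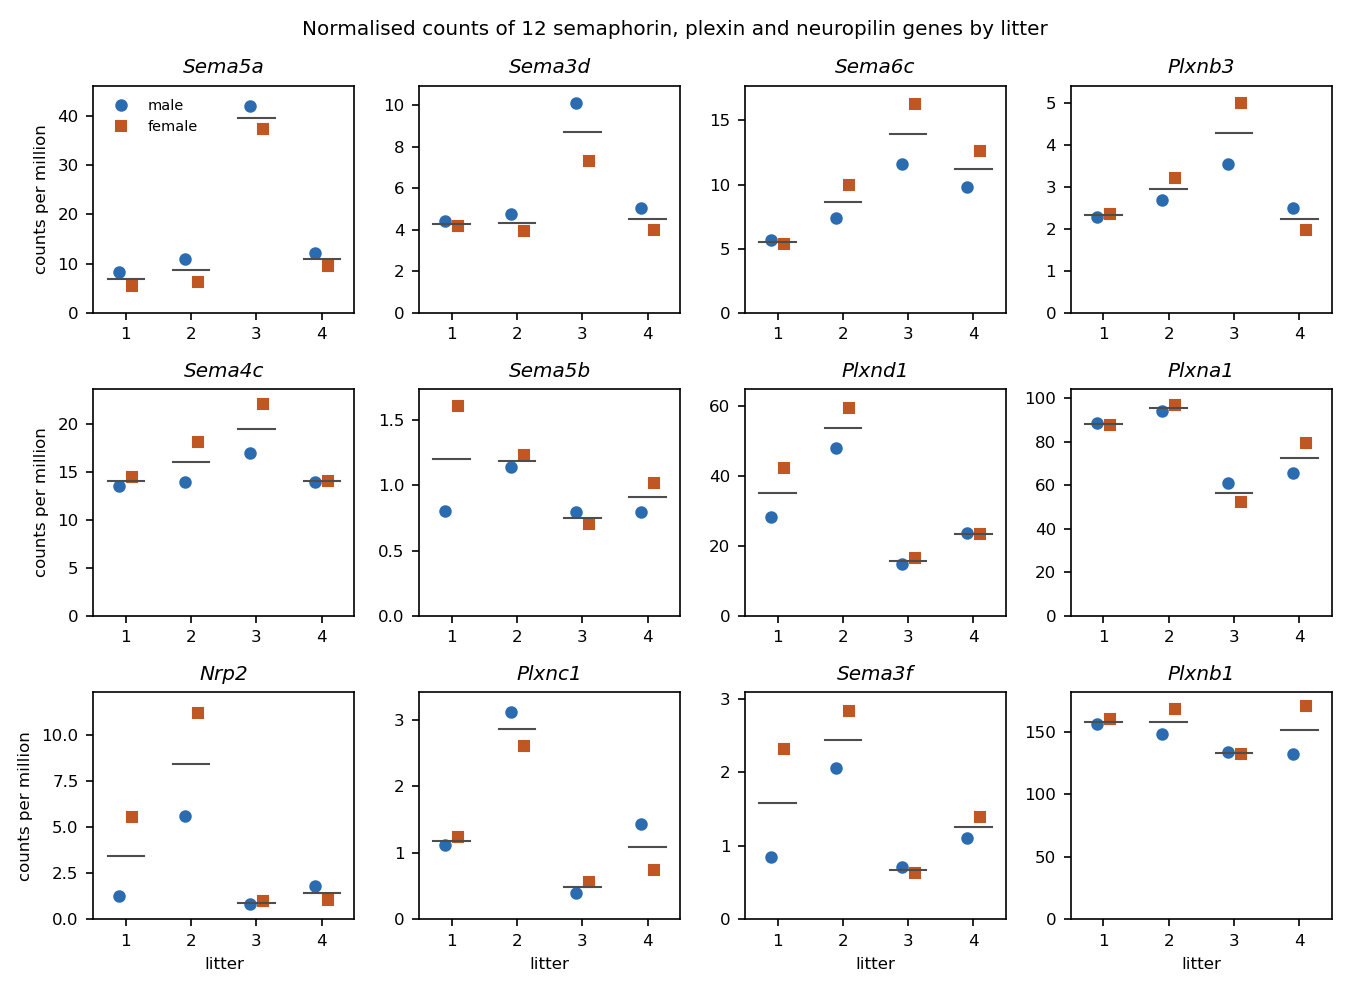
Level of 12 genes in every library in CPM by litter, with males as circles, females as squares and the litter mean as a line, each axis starting at 0. Sema5a and Sema3d separate litter 3 upward in both sexes, Plxnb3 does so narrowly, Sema5b does not, and Plxnd1, Plxna1, Nrp2, Plxnc1 and Sema3f have their 2 lowest libraries in litter 3.

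Leaving out the female of litter 3, the library with the fewest counts, lowered the number of relatives past the threshold from 10 to 5, and the 5 were Plxna1, Plxnd1, Plxnc1, Sema3d and Sema6c. Over all genes the share past the threshold went from 28.3% to 12.1% in the same step. Leaving out the male of litter 3 changed the set instead, with Plxnc1 (log2 fold change -1.3) lost and Plxna2 (-0.34) gained. A fit without 1 of these libraries assumes that the lone library of litter 3 varies like those of the other litters.

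Markers of other cells moved with several of the genes that fell. Of 11 endothelial markers, 7 fell in litter 3 and none of the 11 rose, with a median log2 fold change of -1.42. The endothelial sum was 24.9 and 25.1 CPM in litter 3 against 21.2 to 181 CPM, highest in litter 2 (112 and 181 CPM), where Plxnd1, Nrp2, Sema3f and Sema7a were also high. The male of litter 1 had the lowest endothelial sum, 21.2 CPM. In that library Plxnd1 (28.1 CPM), Nrp2 (1.28), Plxnc1 (1.12) and Sema3f (0.843) were above both litter 3 libraries, and Sema7a (0.241) was below both. Of 10 fibroblast markers 8 fell and of 8 mural markers 5 fell, with medians of -1.91 and -1.56.
Of the lists of other cell types, the epicardial and Schwann sums were above the other 6 libraries in both litter 3 libraries. Epicardial sums were 24.1 and 23.8 CPM against 13.1 to 18.5 CPM, of which Tbx18 made up 21.9 and 21.5 CPM in litter 3, while Msln fell. Schwann sums were 34.1 and 33.9 CPM against 27.3 to 33.6 CPM. Neuron sums were lower in litter 3, at 2.8 and 1.69 CPM against 3.65 to 5.41 CPM. Of these Dbh, which fell, made up 2.04 and 1.19 CPM in litter 3. Erythroid sums were 541 and 188 CPM against 99.3 to 246 CPM. In the stress list 8 of 11 genes rose and 2 fell, with a median of 1.37, the level of Fos being 189 and 165 CPM in litter 3 and 23.6 to 66.4 CPM elsewhere. The part of these shifts in the levels of Sema5a, Sema3d, Sema6c and Plxnb3 was not tested.

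**Figure D4:**
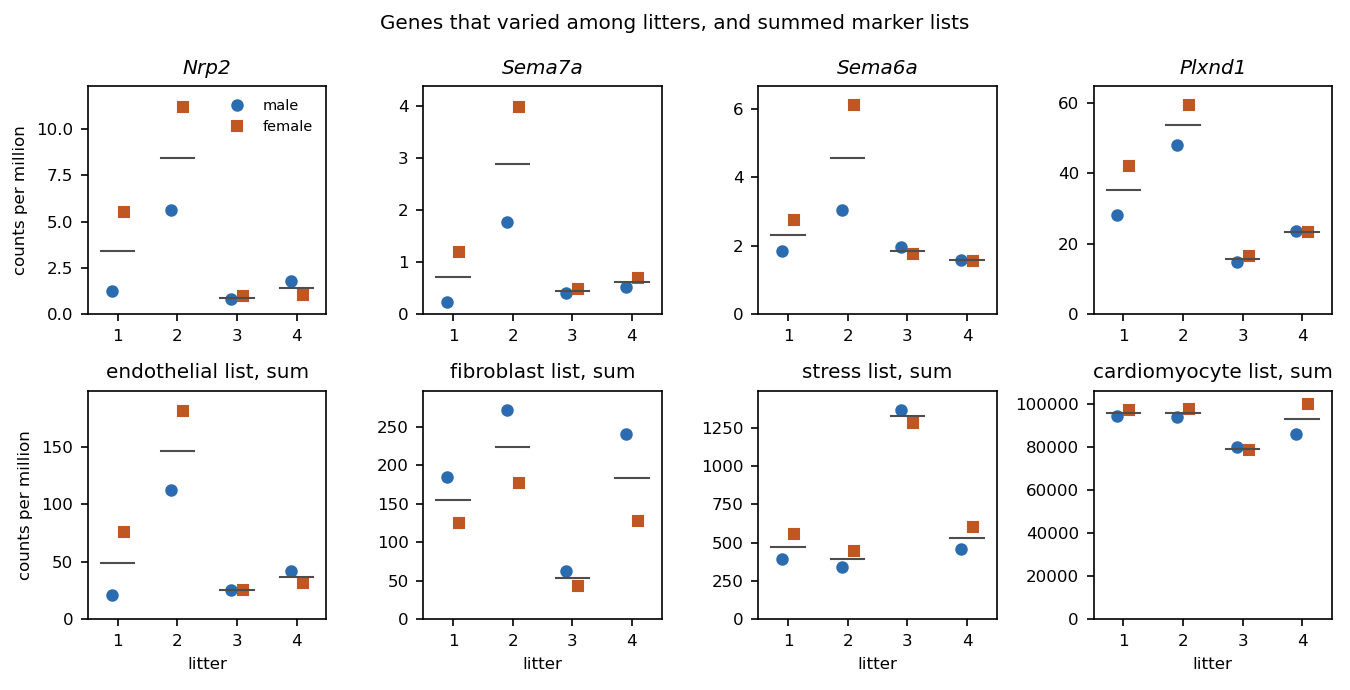
CPM of Nrp2, Sema7a, Sema6a and Plxnd1 (top) and the summed level of the endothelial, fibroblast, stress and cardiomyocyte lists (bottom) in every library by litter, with litter means as lines and axes from 0. The 4 genes and the endothelial list have their highest values in litter 2, up to 181 CPM for the list, and the stress list is high in litter 3 alone.

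Variation apart from litter 3 was tested among the 6 libraries of litters 1, 2 and 4. Of 27 relatives 8 differed (29.6%), against 13.0% of all genes, in edgeR's test at an adjusted p under 0.05. They were Plxnd1 (adjusted p = 0.000994), Sema6c, Sema7a, Nrp2, Plxna2, Sema6a, Plxnc1 and Sema3g (0.0322). DESeq2 called 4 of 26 (7.94% of all genes), and with a mean count of at least 50 there were 5 among 20 genes tested (14.3% of all genes). Sema7a had 0.241, 1.77 and 0.531 CPM in the males of litters 1, 2 and 4 and 1.20, 3.98 and 0.693 CPM in the females (adjusted p = 0.00516). Sema6a, a transmembrane ligand of plexin-A2 and plexin-A4, had 1.85, 3.03 and 1.59 CPM and 2.76, 6.12 and 1.55 CPM (0.0142). Both were highest in litter 2, as the endothelial sum was. Sema3g, a secreted ligand, had 1.81, 3.03 and 0.849 CPM in males and 3.71, 2.65 and 1.22 CPM in females, with litter 4 lowest. Plxna2 was also lowest in litter 4, at 48.5 ± 3.31 CPM, against 69.5 ± 2.50 and 70.2 ± 4.89 CPM in litters 1 and 2 (SD, n = 2, edgeR adjusted p = 0.00838). Taking all 4 litters together, 11 of 27 relatives differed (40.7%), against 32.1% of all genes.
Within litters 1, 2 and 4 alone, Sema5a had means of 6.80 ± 2.03, 8.58 ± 3.40 and 10.8 ± 1.92 CPM (SD, n = 2), a spread much smaller than the step to litter 3, and no test is given because the gene was named in a comparison of all litters.

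Sexes were compared last, over 4 males and 4 females. None of the 28 genes passed the threshold in edgeR's quasi-likelihood test, against 6 of 13771 genes (0.0436%). At an unadjusted p under 0.05 there was 1, Sema3c, in edgeR and the same number in DESeq2, against 2.22% and 2.11% of all genes. With litter as a block, so that littermates are set against each other, none of the 28 passed either, against 0.211% of all genes, while 10 had an unadjusted p under 0.05 in edgeR and 5 in DESeq2, as did 11.6% and 5.64% of all genes. All adjusted p-values of the 28 genes were 1 without the block.
In every litter the male was higher for 3 genes, Sema3c, Sema3d and Sema5a, and lower for 3, Sema6b, Sema7a and, with 14.0 against 14.1 CPM in litter 4, Sema4c, where 9.86% and 10.2% of all genes did the same.

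For Sema5a the log2 ratio of male to female was 0.62, 0.83, 0.17 and 0.36 in litters 1 to 4, so it was smallest in the litter with the highest level. The blocked estimate was 0.46 (SE 0.11, 95% interval 0.23 to 0.69, edgeR unadjusted p = 0.000973, adjusted p = 0.172). Without the block it was 0.37 (SE 0.67), and it turned to -0.41 without the male of litter 3 and to 1.37 without the female. The mean of Sema3c was 3.43 ± 0.943 CPM over males and 2.26 ± 0.439 CPM over females (SD, n = 4), with a blocked difference of 0.61 on the log2 scale (SE 0.20, edgeR adjusted p = 0.307). Sema7a had 0.735 ± 0.699 and 1.59 ± 1.62 CPM, a blocked change of -1.10 (SE 0.31, edgeR adjusted p = 0.28). The endothelial sum was higher in the female of litters 1 and 2 as well, at 75.6 against 21.2 CPM and 181 against 112 CPM, but nearly equal in litter 3 and lower in the female of litter 4 (31.7 against 42.0 CPM). Whether this has a part in the Sema7a difference was not tested.

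**Figure D5:**
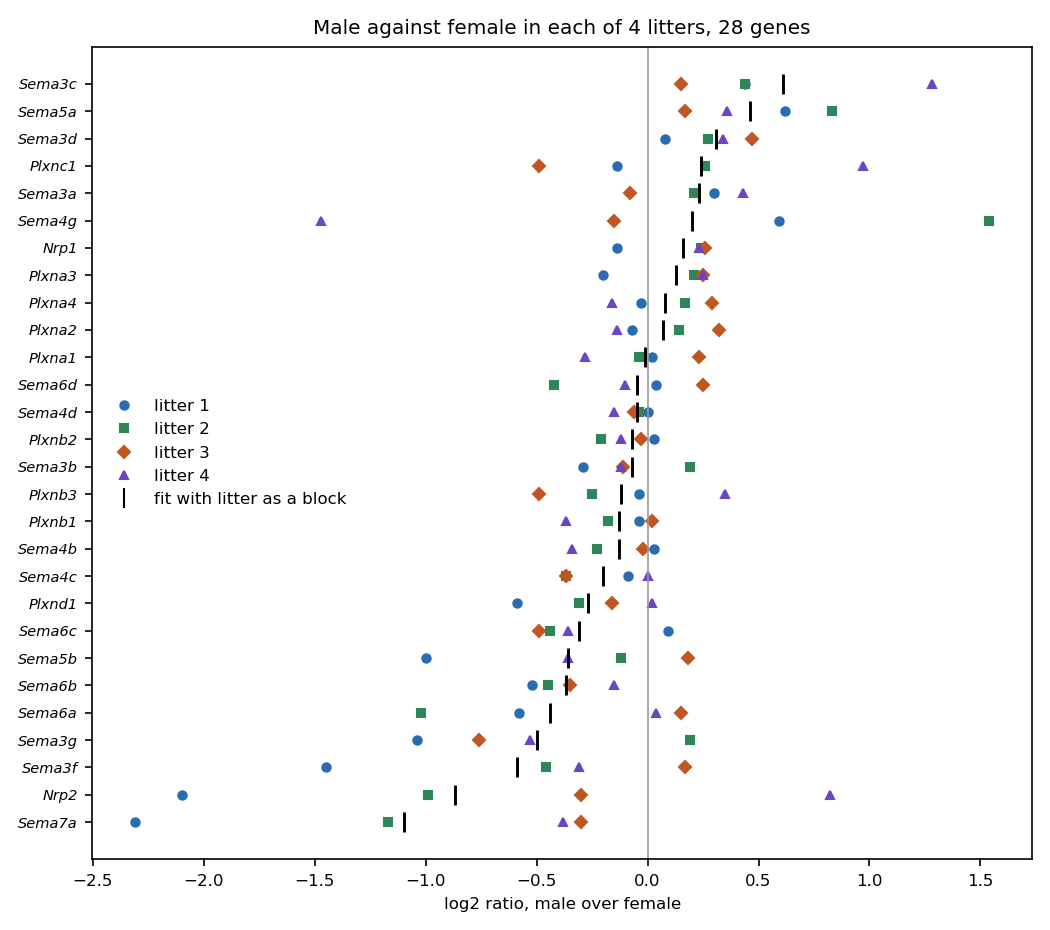
Log2 ratio of male to female in each of 4 litters for the 28 tested genes, ordered by the fit with litter as a block (black bar). Sema3c, Sema5a and Sema3d have all 4 litters to the right of 0 and Sema7a, Sema6b and Sema4c all 4 to the left, Sema4c by a hair in litter 4, with the widest spread in Nrp2, Sema4g and Sema7a.

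Genes that act with or below plexins were counted from a list of 28, of which 25 were tested. In litter 3, 7 of the 25 rose and 2 fell (edgeR, adjusted p under 0.05), with a median of 0.02 on the log2 scale, against 0 over all genes, of which 13.6% rose and 14.8% fell. Dpysl2 to Dpysl5 encode collapsin response mediators, phosphoproteins that pass on the signal of Sema3a to the cytoskeleton, and 2 of these 4 genes rose. Dpysl2 (0.27, edgeR adjusted p = 0.247) and Dpysl4 (-1.05, edgeR adjusted p = 0.136) did not pass. Dpysl5 stood at 1.07 and 1.48 CPM in litter 3 and at 0.161 to 0.548 CPM elsewhere. This was a difference of 2.01 on the log2 scale (SE 0.37, edgeR adjusted p = 0.00217). Its counts were few, since the 0.161 CPM in the male of litter 1 is close to the 0.12 CPM of 3 counts there. Dpysl3 rose by 0.48 (SE 0.05), from 333 to 396 CPM in the other libraries to 545 and 490 CPM. Mical1 and Mical3, enzymes that oxidise actin and bind plexins, rose by 0.44 and 0.34. Rras, a small GTPase inactivated by plexins, rose by 0.42, Ranbp9 by 0.32 and Arhgef11, which binds class B plexins, by 0.19.
The 2 that fell were Kdr, the VEGF receptor (-1.54, SE 0.40, adjusted p = 0.0133), which is an endothelial gene and lay at 2.35 and 2.18 CPM in litter 3 and 2.01 to 22.4 CPM elsewhere, and Gipc1, which binds the tail of neuropilin-1 (-0.23, SE 0.07, adjusted p = 0.0325). Farp1, Farp2, Rac1, Gsk3b, Cfl1 and Itgb1 had log2 fold changes from -0.11 to 0.10 and did not pass. By sex, none of the 25 passed. Crmp1, L1cam and Nrcam had too few counts to be tested.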

How the data were processed

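The deposited file is a single table of the authors' unnormalised counts, with 48440 gene symbols and 1 column per library. STAR 2.7.3a and the build mm10 stand in the submitters' processing notes; the counting program, annotation and strand setting are not given in the sources used here. Per the labels' protocols, libraries were made with a stranded total RNA kit, though the molecule is given as polyA RNA, from 1 µg of RNA and single-end reads of 100 bases.

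Analysis used R 4.3.3 with edgeR 4.0.16 (quasi-likelihood tests, TMM scaling with factors of 0.951 to 1.024, filterByExpr on sex, 13771 genes) and DESeq2 1.42.0 as an alternative. Litter 3 was compared with the mean of litters 1, 2 and 4 in a fit with litter and sex; sexes were compared without a litter term. P-values were adjusted over all tested genes (Benjamini-Hochberg, threshold 0.05). Intervals are 95% and use the fit's moderated degrees of freedom. Scripts were tested on simulated data.

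The members, gene lists and tests were chosen with earlier results of these data known. Every gene the symbol rule found could be named; values in all libraries were given for Sema5a, Sema5b, their described receptors, genes past the threshold in litter 3 or by sex, and the highest gene of each role. Alternatives were another scaling, filter and tool, thinning of every library to the smallest total, no sex term, other reference litters, the litter block, and each library left out.

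Litter numbers pair the samples, since the labels say that they mark a shared litter. After removal of sex means, the correlation across genes of the male and female of a litter was 0.506, 0.503, 0.696 and 0.367. Libraries of 1 sex differed by chi-square values per degree of freedom of 9.56 to 44.9, so no library repeats another. Exon lengths, overlaps and shared windows came from GENCODE M21 on GRCm38.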

Additional observations from a re-analysis of the deposited data

Results flagged for a closer look

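In each sex, the highest or lowest of the 4 libraries was compared with the rest for the 28 tested genes, and in 7 of 56 such groups 1 library was separated from its 3 neighbours by most of the range, which is about 2.8 by chance (1 in 20 groups). The groups share libraries and are not independent, and the 2 of Sema5a in litter 3 are the values the family was picked on. Without Sema5a there are 5 of 54 groups, against 2.7 by chance, and 3 of the 5 involve litter 3. Sema5a had 42.1 CPM in the male of litter 3 (8.23 to 12.2 CPM in males of the remaining litters) and 37.3 CPM in the female against 5.36 to 9.49 CPM. Sema3d had 10.1 CPM in the male of litter 3 against 4.42 to 5.04 CPM, and 7.31 CPM in the female against 3.93 to 4.16 CPM. Sema5a and Sema3d were the 2 genes set apart in both sexes. Sema4c had 17.0 CPM in the male of litter 3 against 13.6 to 14.0 CPM. Sema5b had 1.14 CPM in the male of litter 2 against 0.796 to 0.803 CPM. Sema4b, a transmembrane ligand, was low in the female of litter 1, with 26.4 CPM against 32.4 to 33.6 CPM.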

How the results depend on the processing

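The log2 fold change of Sema5a in litter 3 ran from 1.97 to 2.41 over 18 alternatives. The number of relatives past the threshold in litter 3 was 8 to 12 with all 8 libraries or with 1 litter left out of the reference (17.3% to 32.5% of all genes), and 5 to 12 when single libraries were left out (12.1% to 27.7%). Sema7a passed in 6 alternatives, Plxna2 without the male of litter 3 (adjusted p = 0.0481) and without litter 4 in the reference (0.0149), and Sema3c without the female of litter 4 (0.0351). Plxna1, Plxnd1, Sema3d and Sema6c kept their calls in all 18. Among litters 1, 2 and 4 the count of 8 became 5 with a mean count of at least 50, where fewer genes are tested, and 4 in DESeq2, where the cause was not tested. It was 11 with library size alone (14.7% of all genes) and 12 with no filter (11.6%). The count of 11 over all 4 litters became 14 (34.3%) and 16 (23.0%) there. Leaving out single libraries gave 6 to 9 among litters 1, 2 and 4 (5.05% to 19.5% of all genes) and 9 to 13 over all 4 litters (at most 28.9% of all genes). With litter as a replicate block 0 of 28 genes passed by sex, as without it, and over all genes the count was 29 against 6.

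Some estimates that missed the threshold changed sign. In litter 3 Nrp1 had 0.00 with library size alone, and 0.01 with litter 1 or litter 2 left out of the reference. By leaving out single libraries, Nrp1 ran from -0.11 to 0.02, Plxna4 from -0.27 to 0.02, Sema3a from -0.30 to 0.10, Sema4g from -0.60 to 0.12 and Sema6d from -0.32 to 0.06. By sex the same gave -0.18 to 0.08 for Plxna1, -0.01 to 0.17 for Plxna2, -0.32 to 0.14 for Plxnb3, -0.38 to 0.81 for Plxnc1, -0.65 to 0.05 for Plxnd1, -0.15 to 0.01 for Sema3b, -0.05 to 0.48 for Sema4g, -0.41 to 1.37 for Sema5a, -0.75 to 0.04 for Sema6a and -0.13 to 0.05 for Sema6d. After thinning, Sema4g had -0.11 by sex. Depth limits the genes with the fewest counts, such as Sema4g with 5 to 19 and Sema5b with 10 to 39 counts per library.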
